A study of Mus musculus with 3 samples.

Results

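Egr1, Egr2, Egr3, Egr4, their corepressor genes Nab1 and Nab2, and the arrestin-domain genes Txnip, Arrdc3 and Arrdc4 were followed in H3K27me3 ChIP-seq of mouse kidney. These 9 genes were chosen by name, as the Egr1 to Txnip axis, out of 21883 protein-coding genes, and all matched the GRCm38.p6 gene table. Every deposited peak from 20 kb before to 20 kb after each gene was collected, which gave 17 of the 17612 peaks of the ADA-treated library and 6 of the 8074 peaks of the untreated library. The groups were kidney of C57BL/6 mice given the treatment labelled ADA and kidney of untreated C57BL/6 mice, with 1 library each and 1 labelled input. No age, dose, time or genotype beyond the strain is given in the labels, and how many mice a library holds is not stated. The series title also names mice with a podocyte deletion of SAHH, which were not analysed here. The lists hold no expression values, so the tissue label was not checked against marker genes.

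H3K27me3 is the trimethyl mark on lysine 27 of histone H3 that the methyltransferase complex PRC2 writes, mostly at CpG-rich promoters of genes that are silent or held ready. EGR proteins are zinc finger transcription factors made rapidly and briefly after growth factor, stretch or stress signals, and they bind GC-rich promoter sites. NAB1 and NAB2 bind EGR proteins and turn them into repressors, partly through the NuRD remodelling complex, and Nab2 is itself an EGR target. TXNIP, ARRDC3 and ARRDC4 are alpha arrestins. TXNIP binds thioredoxin, limits glucose uptake and can activate the NLRP3 inflammasome, and its gene is switched on by glucose through the MLXIP and MLXIPL factors.

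Values below are the authors' own peak values. Pileup is the number of fragments that cover a base, averaged over a broad peak, and no peak with a pileup under 10 was listed, so a gene without a peak lies below the calling threshold and is not shown to lack the mark. The background pileup was 3.24 in both libraries, from 20602041 ChIP fragments of 293 bp (ADA-treated) and 18849785 of 321 bp (untreated), and the median pileup of a listed peak was 11.6 (ADA-treated) and 10.7 (untreated). Intervals beside a pileup are exact Poisson 95% intervals on the fragment number that pileup, length and fragment size imply. They cover counting error only, and not the choice of peaks by a threshold. Peaks were scored against 1 background value per library, so pileups and peak calls hold no correction for the input signal at each place. With 1 library per group there was no test between the groups and no replicate check. In whole kidney, fewer cells with the mark and less of the mark per cell cannot be told apart.

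ADA-treated peaks lay over or within 2 kb of 8 of the 9 genes, and untreated peaks of 4 of the 9. By the same rule 51.1% of protein-coding genes had an ADA-treated peak and 27.8% an untreated one. Egr1, Egr3, Egr4 and Arrdc3 had peaks in both lists (4 of 9, against 25.4% of all genes). Egr2, Nab1, Nab2 and Arrdc4 had ADA-treated peaks and no untreated ones (4 of 9, against 25.7%). Txnip had a peak in neither list (1 of 9, against 46.5%), and 0 of 9 had a peak in the untreated list alone (2.4% of all genes). Within 20 kb, 9 of 9 genes had an ADA-treated peak and 5 of 9 an untreated peak, where the shares of all genes were 61.0% (ADA-treated) and 39.2% (untreated).

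**Figure D1:**
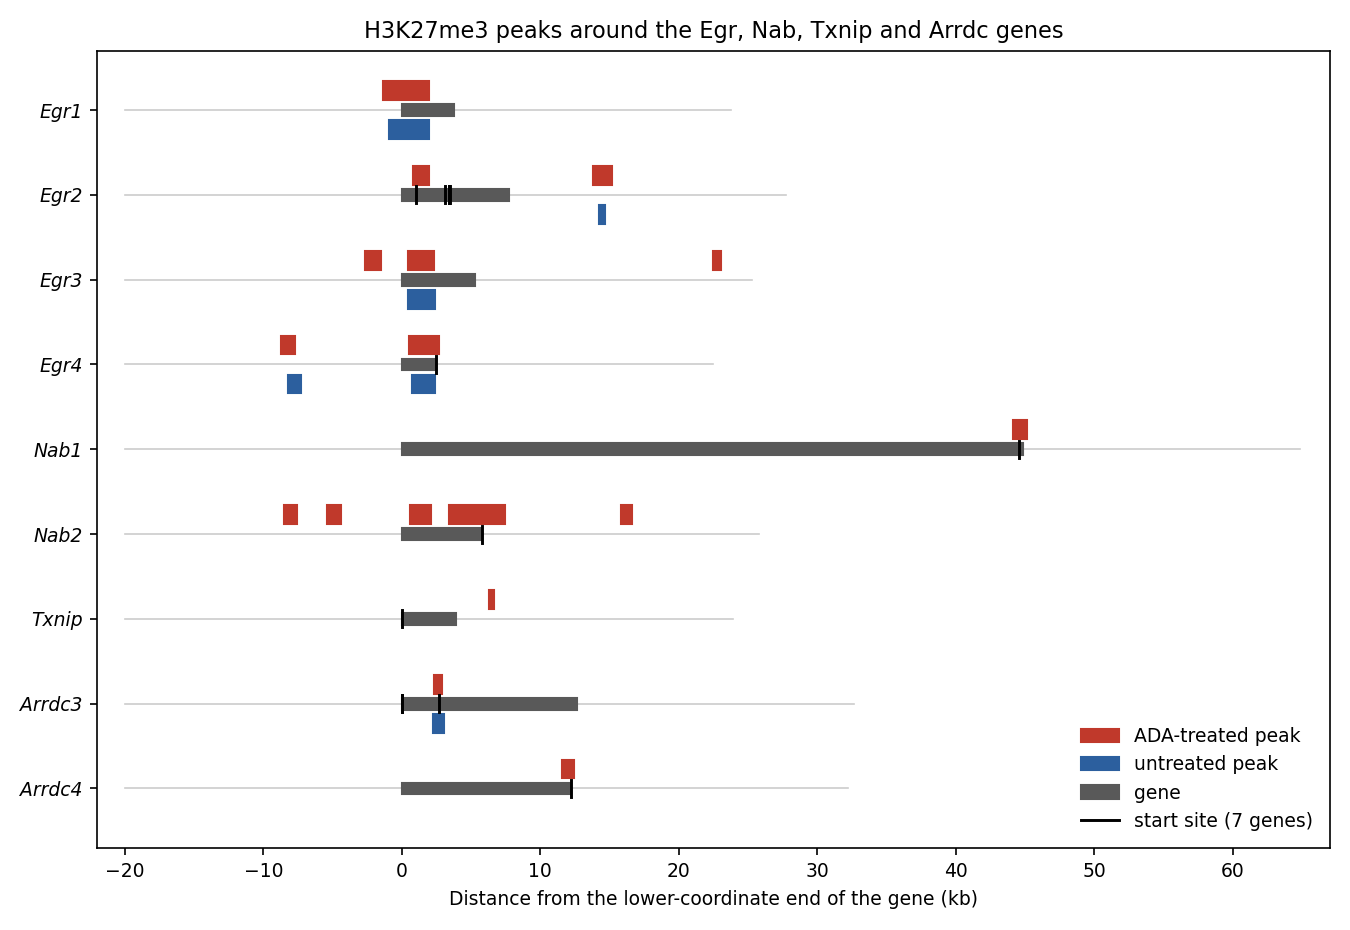
Peaks within 20 kb of each gene, drawn to scale from the lower-coordinate end of the gene (horizontal axis, kb), with ADA-treated peaks above the gene bar and untreated peaks below it; black ticks are RefSeq start sites of the 7 genes whose sites were tabulated. The 17 ADA-treated peaks lie at all 9 genes, and each of the 6 untreated peaks overlaps an ADA-treated one, as 59.1% of all untreated peaks do.

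All 6 untreated peaks of these windows overlapped an ADA-treated peak, while 11 of the 17 ADA-treated peaks had no untreated partner. Over the whole lists, 73.0% of the 17612 ADA-treated peaks had no untreated partner, and 59.1% of the 8074 untreated peaks overlapped an ADA-treated one. Of the peaks, 9 of 17 (ADA-treated) and 4 of 6 (untreated) lay over one of the 9 genes, and the others lay beside it, mostly at a neighbouring gene. Of the 6 overlapping pairs, 4 had the higher pileup with ADA treatment and 2 without it, and the counting intervals overlapped in all 6. Over all 4799 overlapping pairs of the lists, 86.3% had the higher pileup in the ADA-treated list. The ADA-treated peak was the longer in 4 of the 6 pairs, against 71.3% of all pairs.

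**Figure D2:**
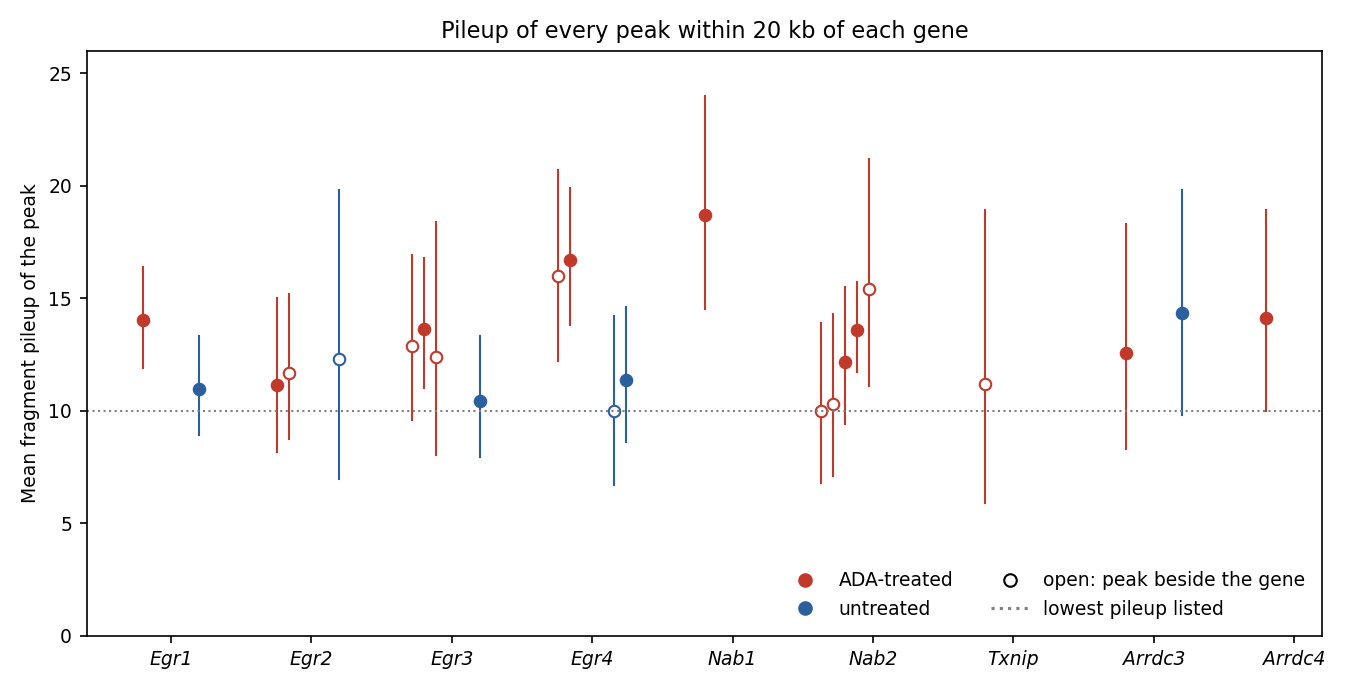
Pileup (mean fragments per base, vertical axis from 0) of every peak within 20 kb of each gene, ADA-treated peaks left of untreated ones; filled points are peaks over the gene, open points peaks beside it, bars the Poisson 95% intervals, and the dotted line the lowest pileup listed. The highest point is the ADA-treated peak of Nab1 at 18.7, and the untreated points lie between 10 and 14.3.

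Egr1, the immediate early factor at the centre of this axis, had a long peak over its lower-coordinate part in both libraries. The peaks covered chromosome 18, 34859882 to 34863146 (ADA-treated, 3265 bp) and 34860280 to 34863179 (untreated, 2900 bp). The ADA-treated peak began 1325 bp before the annotated gene and covered 51.7% of it, and the untreated peak began 927 bp before it and covered 52.6%. Their pileup was 14.02 (11.9 to 16.4) in the ADA-treated and 11.0 (8.91 to 13.3) in the untreated library. The 2 regions shared 2867 bp, which is 87.8% of the ADA-treated peak and 98.9% of the untreated one. Both were long for their list, longer than 97.9% of ADA-treated peaks and 98.8% of untreated peaks. No further peak lay within 20 kb, but the next ones lay just beyond it, at 20335 bp from the gene (ADA-treated, pileup 11.2) and 20811 bp (untreated, pileup 10).

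Egr3, an Egr family member needed for muscle spindle development and immune cell responses, had the most closely matched pair. The peaks inside the gene covered chromosome 14, 70077746 to 70079671 (ADA-treated) and 70077762 to 70079713 (untreated), and the shared bases made up 99.2% of the ADA-treated and 97.8% of the untreated peak. Their pileup was 13.6 (11.0 to 16.8) in the ADA-treated and 10.4 (7.96 to 13.3) in the untreated library. The ADA-treated list held another peak 1482 bp before the gene, with no annotated gene under it, at a pileup of 12.9 (9.58 to 16.9). A further ADA-treated peak lay 17165 bp after Egr3 at the lower-coordinate end of Bin3, an adaptor protein gene, at 12.4 (8.05 to 18.4). Neither of these had an untreated partner.

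Egr4, an Egr family member expressed mainly in brain and testis, was covered by the mark over most of its length. The peaks took in 78.0% of the gene for the ADA-treated library (chromosome 6, 85511664 to 85513796) and 67.9% for the untreated library (85511873 to 85513548). The pileup was 16.7 (13.8 to 19.9) in the ADA-treated and 11.4 (8.6 to 14.6) in the untreated library. The start site of Egr4 lay inside the ADA-treated peak, and the untreated peak ended 41 bp short of it. A second pair lay over the near end of Fbxo41, an F-box protein gene. Its ADA-treated peak, 7686 bp from Egr4, had a pileup of 16.0 (12.2 to 20.7), and its untreated peak, 7251 bp away, had 10 (6.71 to 14.2). These 2 pairs had the largest pileup differences of the 6, at 5.30 over Egr4 and 5.99 at Fbxo41 (ADA-treated minus untreated), with overlapping intervals.

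Egr2, which directs hindbrain segments and myelination, differed from the other Egr genes in having no untreated peak over it in the full list. At a pileup of at least 12, or at a caller's q of at most 5%, no Egr gene kept an untreated peak. The ADA-treated peak of Egr2 passed that q at a pileup of 11.2. The same q asks for a higher pileup in the untreated list, where the peak over Egr4 failed it at 11.4. For Egr2, the ADA-treated peak was lost at a pileup of at least 12 and when both lists were cut to equal length. Its ADA-treated peak (chromosome 10, 67535256 to 67536435) had a pileup of 11.2 (8.15 to 15.0), higher than 40.3% of that list, and it also lay under the lncRNA gene Gm32255. The RefSeq table gives 5 start sites for Egr2. The peak covered the first, and the other 4 lay 1131 to 1495 bp beyond its end, so 4 of 5 starts of Egr2 had no peak over them in either list. A pair of peaks 6082 bp (ADA-treated) and 6553 bp (untreated) after the gene lay at the far end of Ado, a cysteamine dioxygenase gene. There the pileup was 11.7 (8.75 to 15.2) in the ADA-treated and 12.3 (6.97 to 19.8) in the untreated library.

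Windows of 300 bases around a start site, 250 before it and 50 from it on, show what lay under the peak and what lay outside it at Egr2. They are RefSeq sequences of GRCm38.p6 on the plus strand, printed 5′ to 3′, and capitals mark matches to the motifs given further on. The first, chr10:67535249-67535548, lay under the ADA-treated peak in 293 of 300 bases and holds an E-box. The other, chr10:67537619-67537918, had no peak in either list and holds a CArG box, the site of the serum response factor SRF that relays growth factor signals.
Egr2 first start: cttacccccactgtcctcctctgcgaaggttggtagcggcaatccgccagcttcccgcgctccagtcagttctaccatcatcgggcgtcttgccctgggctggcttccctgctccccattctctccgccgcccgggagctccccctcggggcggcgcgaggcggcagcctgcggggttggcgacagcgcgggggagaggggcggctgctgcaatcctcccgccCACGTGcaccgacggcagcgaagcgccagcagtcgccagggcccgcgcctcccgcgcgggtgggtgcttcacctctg
Egr2 downstream start: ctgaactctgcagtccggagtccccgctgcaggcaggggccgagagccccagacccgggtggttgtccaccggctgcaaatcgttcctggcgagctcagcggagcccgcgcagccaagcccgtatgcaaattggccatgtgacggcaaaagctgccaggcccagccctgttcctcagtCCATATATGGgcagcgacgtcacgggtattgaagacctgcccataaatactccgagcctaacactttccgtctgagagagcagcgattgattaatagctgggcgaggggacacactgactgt

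Nab1, the first of the corepressor genes, had the highest pileup of all peaks near the 9 genes, and it had it in the ADA-treated list alone. The peak (chromosome 1, 52499955 to 52500966) lay over the start of the gene with a pileup of 18.7 (14.5 to 24.0), higher than 96.8% of that list, and a deposited fold enrichment of 4.65. It covered 1.69% of the gene, which spans 44864 bp. The nearest untreated peak to Nab1 lay 226039 bp away. The promoter window, chr1:52500399-52500698 on the minus strand, lay wholly under the ADA-treated peak and carries a pair of EGR sites, on opposite strands, in capitals.
Nab1 start: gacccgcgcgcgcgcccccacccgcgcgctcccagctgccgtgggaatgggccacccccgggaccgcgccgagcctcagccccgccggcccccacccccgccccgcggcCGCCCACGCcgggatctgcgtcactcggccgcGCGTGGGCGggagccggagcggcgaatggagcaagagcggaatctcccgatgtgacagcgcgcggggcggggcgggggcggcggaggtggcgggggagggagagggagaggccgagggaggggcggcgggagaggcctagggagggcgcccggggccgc

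Nab2, the corepressor gene that EGR proteins induce, had the most peaks. Within 20 kb of it lay 5 ADA-treated and 0 untreated peaks, and 8.28% of all genes had 5 or more ADA-treated peaks in such a window (a number chosen after the Nab2 count was seen). Of these 5 peaks, 2 lay over Nab2 and together covered 67.8% of the gene. The longer one (chromosome 10, 127664345 to 127668404, 4060 bp) covered the start site and the neighbouring lncRNA gene 1700012D01Rik, and was longer than 99.0% of the list. Its pileup was 13.6 (11.7 to 15.7), and that of the other peak inside the gene was 12.2 (9.4 to 15.5). Of the remaining peaks, 2 lay in Stat6, a cytokine signalling factor gene, at 10 (6.8 to 13.9) and 10.3 (7.08 to 14.3). The fifth lay at the near end of Nemp1, a nuclear envelope protein gene, at 15.4 (11.1 to 21.2). Of the 17 ADA-treated window peaks, 15 passed a caller's q of 5%, and the 2 in Stat6 did not (−log10 q of 0.769 and 0.901). Without them Nab2 would have no more peaks than Egr3, which had 3. The nearest untreated peak lay 38819 bp from Nab2, with a pileup of 13.6.

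Txnip was the only gene of the 9 with no peak over it or within 2 kb in either list. Its nearest peak was in the ADA-treated list, 2384 bp after the gene and 6284 bp from its start site (chromosome 3, 96564241 to 96564584), inside the lncRNA gene Gm15441, which spans Txnip. This was the shortest peak of the set, at 344 bp, with a pileup of 11.2 (5.9 to 18.9) that corresponds to about 13 fragments. The nearest untreated peak lay 78072 bp away, with a pileup of 10.5. The promoter window, chr3:96557707-96558006 on the plus strand, is printed because glucose acts on Txnip through it. Capitals mark its match to the carbohydrate response element, which MLXIP and MLXIPL bind.
Txnip start: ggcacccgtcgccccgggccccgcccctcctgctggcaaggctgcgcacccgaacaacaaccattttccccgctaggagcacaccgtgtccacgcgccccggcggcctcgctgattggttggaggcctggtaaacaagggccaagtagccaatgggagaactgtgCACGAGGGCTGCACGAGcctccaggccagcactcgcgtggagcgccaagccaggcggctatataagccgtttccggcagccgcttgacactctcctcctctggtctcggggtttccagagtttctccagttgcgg

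Arrdc3, an adaptor for receptor sorting and breakdown, had a peak at the same place in both libraries. The peaks covered chromosome 13, 80885680 to 80886307 (ADA-treated, 628 bp) and 80885641 to 80886411 (untreated, 771 bp), and the ADA-treated peak lay wholly inside the untreated one. The pileup was 12.6 (8.3 to 18.3) in the ADA-treated and 14.3 (9.8 to 19.8) in the untreated library. The untreated value was the highest of the 6 untreated peaks and exceeded 98.9% of its list, and the ADA-treated value exceeded 64.9% of its own. Lists of different length do not show a change by such ranks. The gene has 3 start sites, and the peaks covered the one that lies 2711 bp after the first, while the other 2 lay over 2 kb from a peak in both lists. The window at the covered start is chr13:80885845-80886144 on the plus strand. Of the 13 windows tabulated, which leave out Egr1 and Egr3, it alone lay wholly under peaks of both lists. It holds none of the motifs searched and has no capitals.
Arrdc3 covered start: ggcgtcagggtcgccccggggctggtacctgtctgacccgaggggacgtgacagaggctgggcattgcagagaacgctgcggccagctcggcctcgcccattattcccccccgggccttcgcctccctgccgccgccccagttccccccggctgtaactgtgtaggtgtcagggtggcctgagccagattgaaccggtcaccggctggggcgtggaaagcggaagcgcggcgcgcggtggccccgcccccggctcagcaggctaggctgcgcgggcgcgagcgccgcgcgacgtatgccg

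Arrdc4, an alpha arrestin gene that glucose induces as it does Txnip, had an ADA-treated peak over its start and no untreated one (chromosome 7, 68748591 to 68749450). The pileup was 14.1 (10 to 18.9), higher than 79.8% of that list. The nearest untreated peak lay 784330 bp away. Of the 300 bases of its promoter window, chr7:68749189-68749488 on the minus strand, 262 lay under the peak. The window holds a CArG box and an E-box, in capitals.
Arrdc4 start: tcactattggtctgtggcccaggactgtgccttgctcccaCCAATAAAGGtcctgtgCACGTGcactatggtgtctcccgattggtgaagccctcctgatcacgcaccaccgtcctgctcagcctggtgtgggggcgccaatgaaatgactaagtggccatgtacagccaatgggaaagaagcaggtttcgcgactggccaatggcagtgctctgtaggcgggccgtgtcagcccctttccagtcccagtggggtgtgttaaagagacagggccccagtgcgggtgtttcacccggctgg

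Start sites were tabulated for 7 of the 9 genes, 13 sites in all, some of them close together. The table held none for Egr1 and Egr3, whose peaks in both lists therefore do not enter the counts that follow. An ADA-treated peak covered 6 of the 13 and an untreated peak 1 (Arrdc3), where the shares over 21262 start sites of protein-coding genes were 34.7% (ADA-treated) and 12.2% (untreated). The 6 covered sites were 1 each from Egr2, Egr4, Nab1, Nab2, Arrdc3 and Arrdc4. Over all genes, covered sites were richer in CpG. The median ratio of observed to expected CpG was 0.83 at start sites with an ADA-treated peak and 0.32 at those without one, and for untreated peaks it was 0.87 with one and 0.49 without. Of the 13 sites, 12 had a ratio of at least 0.6, from 0.64 (Nab2) to 1.0 (a start of Egr2). Of these 12, an ADA-treated peak covered 5 and an untreated peak 1, against 62.2% (ADA-treated) and 22.7% (untreated) of all start sites with such a ratio. The 12 hold all 5 starts of Egr2 and all 3 of Arrdc3, with 1 start of each gene covered. They therefore count sites and not separate genes. Arrdc4 was the exception, with a ratio of 0.42 and an ADA-treated peak over its start. Txnip had 0.76 and no peak.

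**Figure D3:**
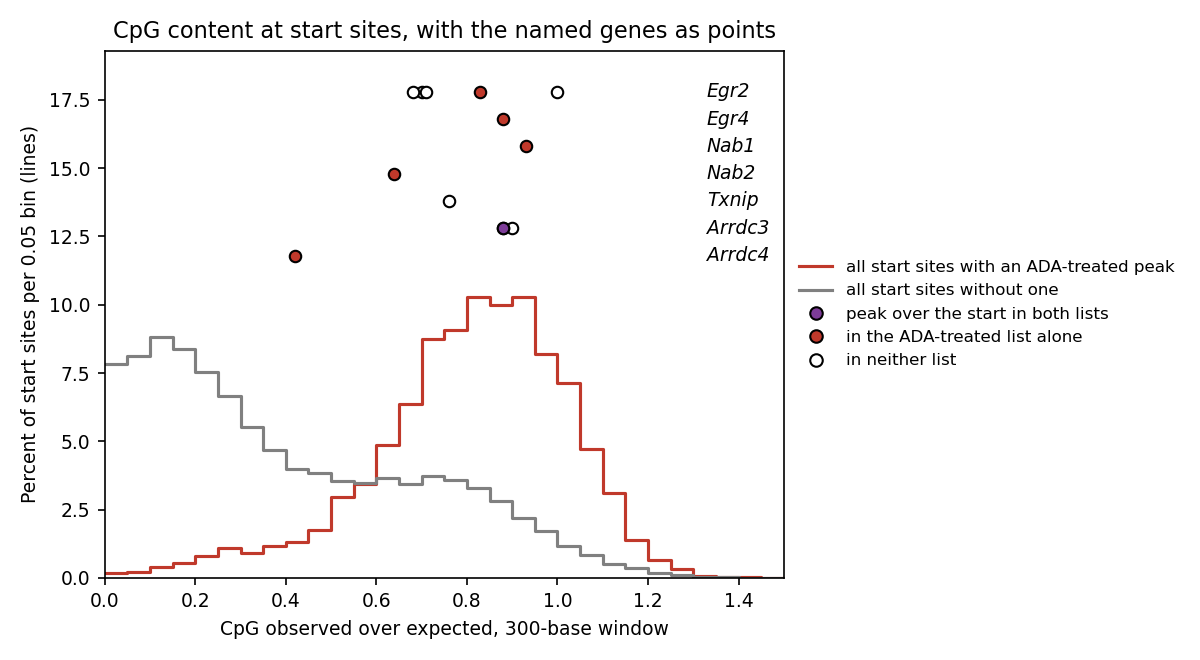
Ratio of observed to expected CpG in 300-base windows at start sites (horizontal axis); lines give the percent of all start sites per bin, with an ADA-treated peak and without one, and points give each start site of the named genes, at heights that only separate the genes. The points lie between 0.42 (Arrdc4) and 1.0 (Egr2), and sites with and without a peak overlap in CpG ratio.

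The motifs were searched on both strands of the 13 windows, several of which overlap at Egr2 and Arrdc3. The EGR site, GCGTGGGCG, matched at 2 places in the Nab1 window, 141 to 133 and 109 to 101 bases before the start, and in 0.828% of all promoter windows of protein-coding genes. The CArG box matched in the 4 downstream windows of Egr2 and in that of Arrdc4, and in 1.52% of all windows. The E-box, CACGTG, matched in the first window of Egr2 and in that of Arrdc4, and in 7.84% of all windows. A carbohydrate response element, searched as 2 copies of CACGNG separated by 5 bases, matched in the Txnip window from 85 to 69 bases before the start, and in 0.0705% of all windows. An E-box can form part of that element by its letters, but no matches overlapped in these windows. A match describes the letters of a window and shows no binding.

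Genes that work with these 9 were read from 7 lists of 53 genes by the same rule, a peak over the gene or within 2 kb. Of the 53, 45 (84.9%) had an ADA-treated peak and 25 (47.2%) an untreated one, against 51.1% (ADA-treated) and 27.8% (untreated) of all protein-coding genes, and each of the 25 also had an ADA-treated peak. The share among the 9 genes themselves, 88.9% (ADA-treated) and 44.4% (untreated), was close to that of these lists. In the values that follow, the strongest peak of each library counts, and the genes named were mostly those with the highest ADA-treated pileup of their list. Over all 25 genes with peaks in both lists, 22 had the higher pileup in the ADA-treated list and 3, Mrtfa, Prx and Arrdc2, in the untreated list. Of all 4799 overlapping pairs of peaks, 86.3% had the higher pileup in the ADA-treated list. That share counts pairs of peaks and not the strongest peak of each gene. The strongest peak can come from unequal numbers of peaks, such as 6 ADA-treated and 1 untreated at Mta1. At Txnrd3 there were 1 ADA-treated and 2 untreated peaks.

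Among other immediate early genes, 11 of 12 had an ADA-treated peak and 7 of 12 an untreated one. The nuclear receptor gene Nr4a2 had a pileup of 15.5 in the ADA-treated and 10.9 in the untreated library, at different places. Nr4a1 had 13.2 (ADA-treated) and 11.4 (untreated) at overlapping places, Nr4a3 had 14.7 in the ADA-treated list alone, and Zfp36, which encodes an mRNA decay factor, had 13.5 (ADA-treated) and 10.2 (untreated) at different places. Ccn1 had no peak in either list. Of 6 genes whose products induce Egr genes, 5 had an ADA-treated peak and 3 an untreated one. The ETS factor gene Elk4 had 18.35 and Elk3 12.1 in the ADA-treated list alone. Srf had 13.9 in the ADA-treated and 10.1 in the untreated library, and the SRF coactivator gene Mrtfb had 12.8 (ADA-treated) and 10.2 (untreated). Its relative Mrtfa had 11.01 (ADA-treated) and 11.55 (untreated). Elk1 had no peak.

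NuRD genes, whose products NAB proteins recruit, had an ADA-treated peak in 6 of 6 and an untreated peak in 4 of 6. Chd4, the remodelling ATPase, had a pileup of 19.05 in the ADA-treated and 10.7 in the untreated library. The deacetylase gene Hdac1 had 17.9 (ADA-treated) and 11.7 (untreated) at different places. Mta1 had 16.95 (ADA-treated) and 12.4 (untreated), and Chd3 had 16.0 (ADA-treated) and 11.8 (untreated). Known EGR targets, collected from several tissues, had an ADA-treated peak in 13 of 16 and an untreated peak in 5 of 16. Cdk5r1, a neuronal kinase activator gene, had 19.5 (ADA-treated) and 11.2 (untreated), and the growth factor gene Pdgfb had 16.0 (ADA-treated) and 11.7 (untreated). F3, the tissue factor gene, had 17.4 and Icam1, a leukocyte adhesion gene, 15.65 in the ADA-treated list alone. Prx, the gene of a myelin protein, had 11.45 (ADA-treated) and 11.9 (untreated). Thbs1, Fn1 and Gjb1 had no peak.

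On the Txnip side, 4 of 4 genes of glucose-linked factors that act on Txnip had an ADA-treated peak and 2 of 4 an untreated one. Foxo1 had a pileup of 16.6 in the ADA-treated and 12.2 in the untreated library, and Mlxipl had 11.4 (ADA-treated) and 10.7 (untreated). Mlxip had 15.5 and its partner gene Mlx 11.5 in the ADA-treated list alone. Of 6 genes of the thioredoxin system and TXNIP partners, 4 had an ADA-treated peak and 3 an untreated one. Txn2, the mitochondrial thioredoxin gene, had 15.5 in the ADA-treated list alone, and Txn1 had 12.6 in the ADA-treated and 11.5 in the untreated library. The reductase gene Txnrd3 had 14.03 (ADA-treated) and 10.3 (untreated), and Txnrd2 had 12.65 (ADA-treated) and 10.7 (untreated), each with its strongest peaks at different places in the 2 libraries. Txnrd1 and Nlrp3 had no peak, as at Txnip itself. Of the other alpha arrestins, Arrdc1 had 11.99 in the ADA-treated list alone, Arrdc2 had 11.0 in the ADA-treated and 12.05 in the untreated library, and Arrdc5 had no peak.

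**Figure D4:**
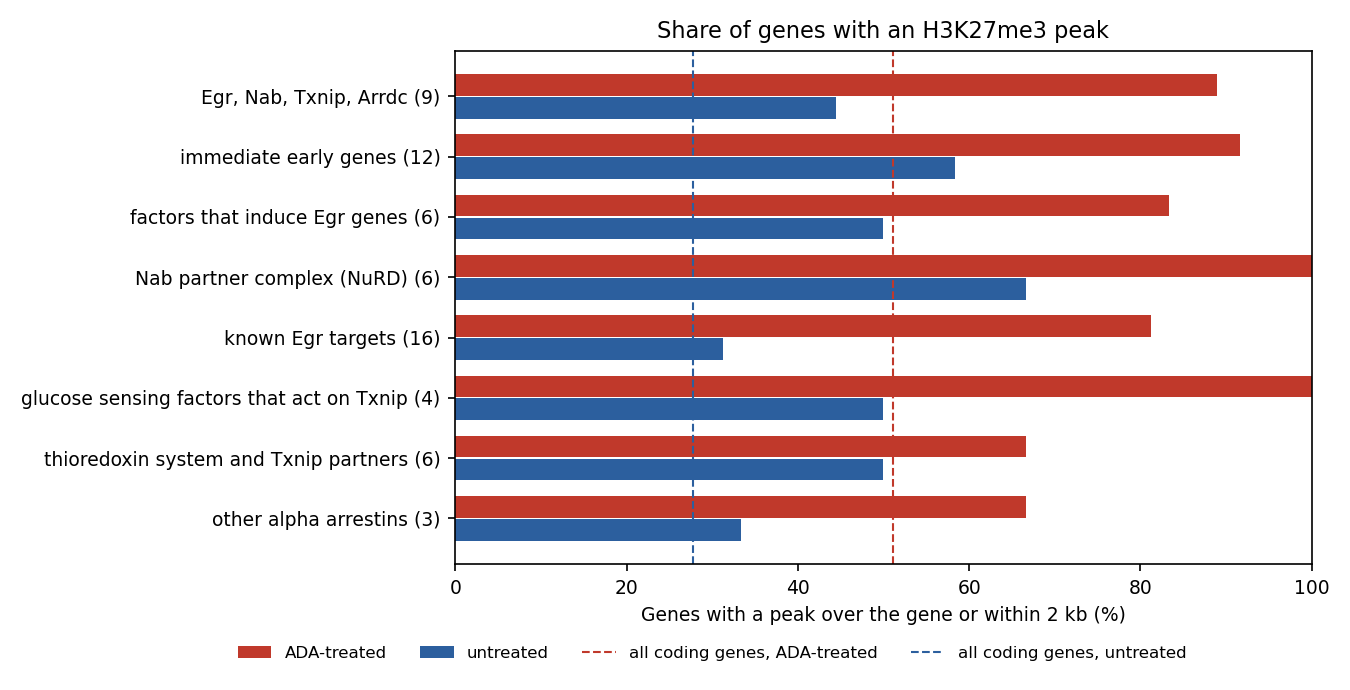
Percent of the genes of each list (gene number in brackets) with a peak over the gene or within 2 kb, ADA-treated above untreated, with dashed lines at the share of all protein-coding genes, 51.1% (ADA-treated) and 27.8% (untreated). The 9 genes stand at 88.9% (ADA-treated) and 44.4% (untreated), within the range of the other lists.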

How the data were processed

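H3K27me3 was measured by ChIP-seq, and groups come from the treatment and antibody labels. The authors called broad peaks with MACS 2.1.2 for each library against its own input, at a p threshold of 0.001, with paired-end fragments, duplicates kept and local background off, per the file headers. The deposited pileup is a fragment signal averaged over the peak. The deposited fold enrichment is pileup plus 1 over background plus 1. With local background off, that background was 1 value per library, so differences in input signal between places were not corrected for. The deposited −log10 p and −log10 q are the caller's, and the headers call q not calculated although values are given. The aligner is not stated in the labels or headers. Per the submitters' processing notes, CASAVA 1.4 and mm9 were used.

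Coordinates were read here as GRCm38, in conflict with the mm9 of those notes. At GRCm38 positions, 34.7% and 12.2% of RefSeq start sites lay under ADA-treated and untreated peaks. After shifts of 10 kb the shares were at most 2.02% (ADA-treated) and 0.734% (untreated). The gene table gives gene spans without exons. Promoter windows come from RefSeq (GRCm38.p6), matched by symbol for 7 genes. Genes with a peak were counted over 21883 protein-coding genes outside the mitochondrion, with a minimum overlap of 1 bp. The counting was tested on simulated data. Members, lists and windows were chosen with earlier results of these data known. All 9 genes and their peaks are named. From each list, up to 4 genes with the highest ADA-treated pileup are named, and those without a peak; Mrtfa and Prx were added after their values were seen. The carbohydrate response element and the CpG ratio limit of 0.6 were added after seeing the data. No p-value was computed. Python 3.11.15, numpy 2.4.6, pandas 2.3.3, scipy 1.17.1 and matplotlib 3.10.9 were used.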

Additional observations from a re-analysis of the deposited data

How the results depend on the processing

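The counts were recomputed under other gene windows, stricter peaks, lists of equal length, merged peaks and stricter overlap. Cuts on p, q and pileup and equal length all choose peaks by signal over 1 background value per library. They are therefore not separate checks. Of 42 alternative values, 28 stayed within 1.5 times the main count. Some of the 28 could not move. Merging peaks within 1 kb joined none, leaving 17612 ADA-treated and 8074 untreated peaks. Equal length left the untreated list at its 8074 peaks, so its gene and window peak counts were fixed there. At a −log10 p of at least 10, all 6 counts fell to 0, since the strongest peak of the set had 9.62, and the shares of all genes with a peak were 2.27% (ADA-treated) and 0.0366% (untreated). At a pileup of at least 12, the untreated list kept 1 of 9 genes with a peak (Arrdc3, against 5.46% of all genes), 2 window peaks and 1 shared peak, and the ADA-treated list 1 shared peak. With q held to at most 5%, the untreated list kept 1 gene (Arrdc3, against 2.53% of all genes), 1 window peak and 1 shared peak, and the ADA-treated list 1 shared peak. The genes with an ADA-treated peak numbered 8 at that q (42.0% of all genes), 7 at that pileup (33.9%) and 7 at equal list length (35.3%), where the untreated list kept 4 (27.8%). The same q is a different cut in each list. A pileup of 11.2 passed it in the ADA-treated list (Egr2), and 12.3 failed it in the untreated list (at Ado). Counts at that q therefore do not compare the libraries at an equal signal. Peaks of short length rest on few fragments (about 13 at Txnip). At this depth a gene without a peak is not shown to lack the mark. No paired analysis was possible because each group has 1 library and the labels give no replicate numbers.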
